A study of Homo sapiens with 8 samples.

Results

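SR proteins, heterogeneous nuclear ribonucleoproteins (hnRNPs) and the subunits of the SF3A and SF3B complexes were examined after knock-down of RND3 (also called RhoE) in the human glioblastoma line U87. Members were all genes whose symbol starts with HNRNP, SRSF, SFRS or SF3, which gave 44 of the 19483 gene symbols on the array, measured by 72 probes. Total RNA was labelled with Cy3 and hybridised to 8 Agilent arrays of 1 colour. The siControl group received non-silencing siRNA (NSC in the labels) and the siRND3 group siRNA against RND3 (RhoE KD), both by reverse transfection with a lipid reagent, and both carried no other treatment. Each group had 3 arrays at 24 h and 1 array at 48 h. A pair of siRNAs is described in the methods, without their assignment to arrays. Nothing states that replicates came from separate cultures, so p-values measure only the spread between these arrays, which may be technical.

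Splicing removes introns from pre-mRNA. SR proteins bind exons through RNA recognition motifs and, through domains rich in arginine and serine, help the splicing machinery to recognise nearby splice sites. HnRNPs coat nascent transcripts and often act against SR proteins, and several also regulate mRNA export, stability and translation. SF3A and SF3B belong to the U2 small nuclear ribonucleoprotein (snRNP), which binds the branch point of the intron. Many of these factors are essential for growth, and several control their own mRNA through alternative exons that lead to decay.

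RND3 was examined first, as a check of the labels. Its probe (A_23_P142849) gave log2 signals of 11.88, 11.91 and 11.90 in siControl cells and 10.12, 10.18 and 10.42 in siRND3 cells at 24 h. This is a log2 difference of -1.66 (adjusted p = 0.000345, limma), or 31.7% of control, and the difference at 48 h was -1.65. Across the arrays, 68.3% to 70.7% of probes were well above background. All 8 arrays lay on 1 slide, with the siRND3 arrays in row 1 and the siControl arrays in row 2, and an effect of row cannot be told apart from the treatment. Of 9 glioma cell marker genes, 5 were well above background on all 8 arrays, among them VIM, NES, CD44 and EGFR, while no array had GFAP or SOX2 well above background. Of 10 marker genes of other cell types, 8 had a probe well above background on all 8 arrays, and RBFOX3, which marks neurons, was not on any. The summed intensity of those 10 genes at 24 h was 7051 to 7229 in siControl cells and 7070 to 7853 in siRND3 cells. For the 9 glioma marker genes it was 222372 to 236149 in siControl cells and 188226 to 216407 in siRND3 cells, without overlap. Most of the first sum came from CD68 and SNAP25, with mean log2 signals of 12.22 and 10.85 in siControl cells. Most of the second came from VIM (17.38) and CD44 (15.78), and VIM differed by only -0.08 (limma adjusted p = 0.596). Single markers also moved at 24 h. Among glioma markers CD44 fell by 0.58, OLIG2 fell by 1.40 and PDGFRA fell by 0.71 on the log2 scale, and NES rose by 0.41 with 1 of its probes. Among markers of other cell types SNAP25 (-0.42) and 1 probe of PECAM1 (-0.99) fell. The part of these markers in the results was not tested.

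Most splicing factor transcripts differed little at 24 h, while a few fell. Of the 42 genes tested (70 probes), 6 fell (SF3A1, SRSF1, SF3B4, SRSF7, HNRNPLL and HNRNPA0) and 1 rose (HNRNPDL). The largest fall was that of SF3A1, to 33.6% of its control level. Changed genes had 1 or more probes with a limma adjusted p under 0.05 and no such probe of the opposite sign. The changed share was 16.7% of the members, against a background of 16.4% of all genes tested, of which 7.16% rose and 9.26% fell. By probe, 7 of 70 member probes were called (10%), against 11.6% of all probes. For the 16 member probes with an unadjusted p under 0.05, no share over all probes is given here. The groups did not overlap for 25 of the 70 probes (35.7%), against 34.4% of all probes. These shares lay near the background. Scaling each array to its 75th percentile gave 3 rises and 6 falls, and normexp background correction gave 3 rises and 8 falls. Calls over all tested probes moved as well. They were 1515 up and 1835 down in the main fit, 1894 and 1708 with that scaling, and 2072 and 2137 with normexp. RNA was measured in bulk, so fewer cells of a type and less RNA per cell cannot be told apart.

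**Figure D1:**
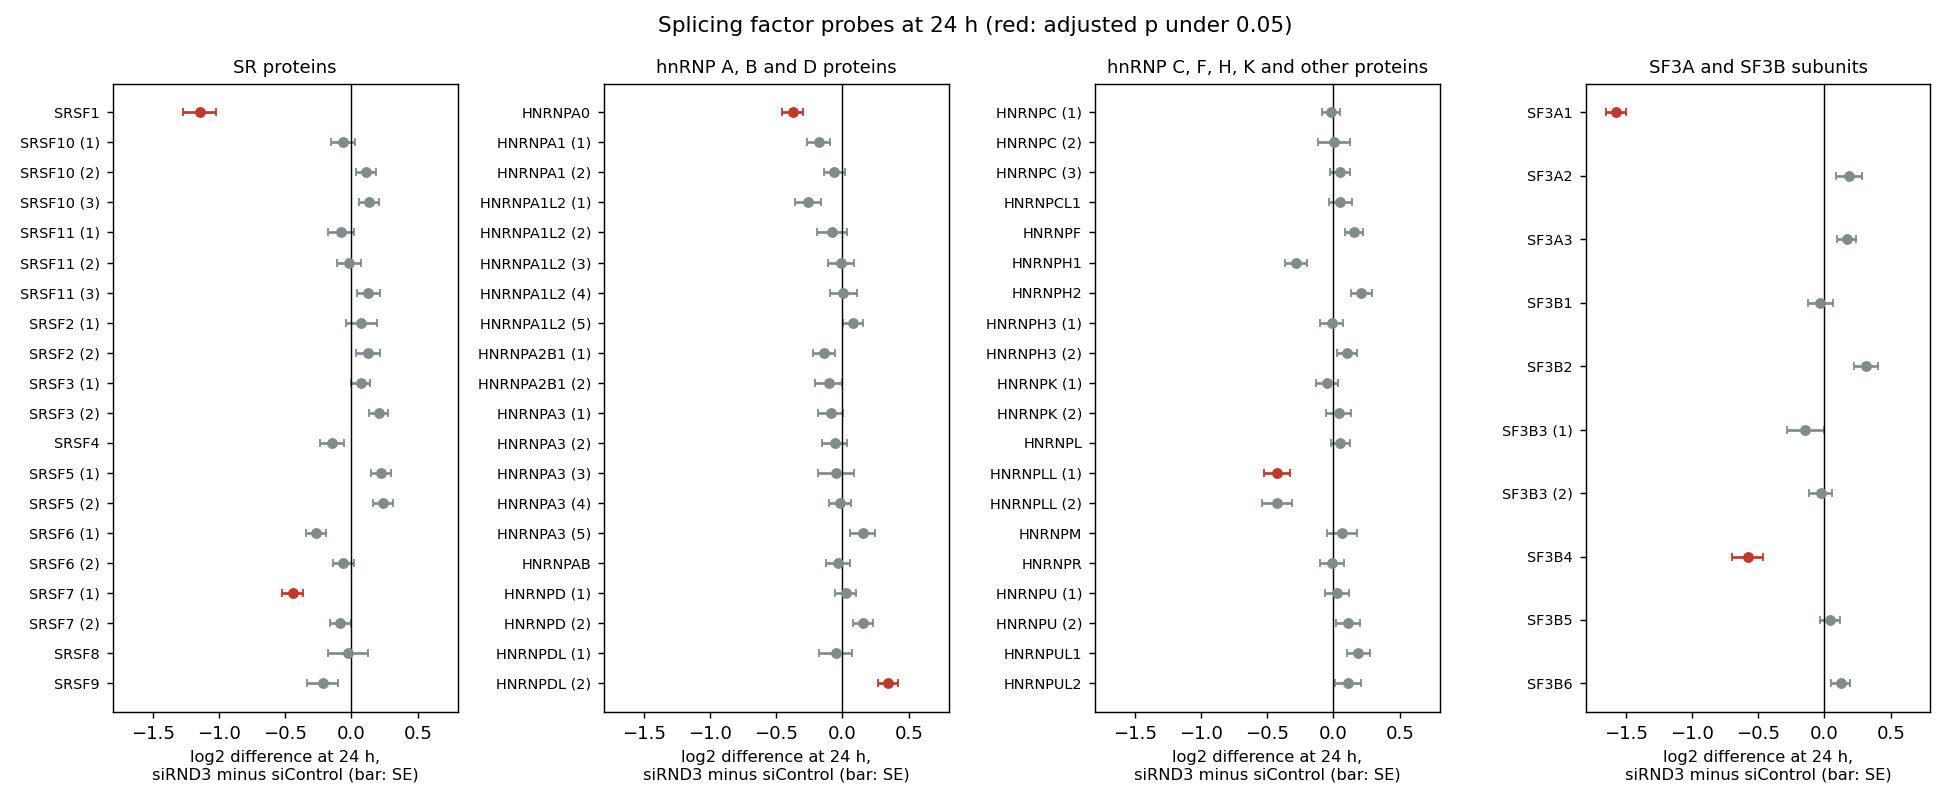
Log2 difference (siRND3 minus siControl at 24 h, x axis) of each of the 70 tested probes by role, with the SE from limma as bars, numbers in brackets telling apart probes of a gene and red points marking an adjusted p under 0.05. Most points lie near 0, with SF3A1 at -1.57 and SRSF1 at -1.14 farthest to the left.

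The median log2 difference of the member probes was -0.01, against 0.05 for all tested probes, and the median size of the difference was 0.10, against 0.16. The sign of the members' median was not stable, since it was 0.02 after scaling to the 75th percentile and between -0.05 and 0.03 when single arrays were left out. For 58 of the 70 probes the difference was under 0.25 in size. Of the 63 probes that were not called, 61 had a 95% interval of the difference that lay wholly within 0.5 of 0 on the log2 scale. The exceptions were the second HNRNPLL probe and SF3B2. Every tested member probe was well above background on all 8 arrays, while probes of all genes were tested if every array of either 24 h group was. The members without a tested probe were SRSF12 and the pseudogene HNRNPKP3, which were not well above background on any array.

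The promoters of SF3A1 and SRSF1, the genes with the largest falls, and of HNRNPA0, whose difference was larger at 48 h than at 24 h, are shown for reference as the 250 bases before the RefSeq start site (GRCh38.p14). All 3 genes lie on the minus strand, and the windows are chr22:30356895-30357144 for SF3A1, chr17:58007247-58007496 for SRSF1 and chr5:137754364-137754613 for HNRNPA0. Capitals mark matches on either strand to the motifs searched.
SF3A1: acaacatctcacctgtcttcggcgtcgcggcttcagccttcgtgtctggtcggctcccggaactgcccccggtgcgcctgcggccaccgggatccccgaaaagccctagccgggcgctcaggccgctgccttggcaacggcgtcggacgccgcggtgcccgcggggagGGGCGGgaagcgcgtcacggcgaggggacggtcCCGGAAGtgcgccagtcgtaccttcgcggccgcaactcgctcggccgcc
SRSF1: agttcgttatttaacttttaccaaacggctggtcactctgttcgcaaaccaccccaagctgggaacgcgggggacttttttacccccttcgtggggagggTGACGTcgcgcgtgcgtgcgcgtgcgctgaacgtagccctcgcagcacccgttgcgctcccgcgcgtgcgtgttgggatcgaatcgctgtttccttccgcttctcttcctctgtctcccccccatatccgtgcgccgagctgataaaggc
HNRNPA0: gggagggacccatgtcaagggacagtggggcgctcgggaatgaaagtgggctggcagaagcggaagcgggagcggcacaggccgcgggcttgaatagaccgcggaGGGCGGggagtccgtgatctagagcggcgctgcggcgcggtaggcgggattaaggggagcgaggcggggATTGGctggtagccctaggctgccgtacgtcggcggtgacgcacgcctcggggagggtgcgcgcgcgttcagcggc

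Each motif was searched on both strands. The GC box was searched as GGGCGG, the CCAAT box by its name and the TATA box as TATAAA. The core of ETS sites was searched as CCGGAAG and the E box as CACGTG. A shortened cAMP response element was searched as TGACGT. The YY1 core was searched as AAGATGGC. The NRF1 core was searched as GCGCATGC. SF3A1 held 1 GC box and 1 ETS core, SRSF1 held 1 shortened cAMP response element, and HNRNPA0 held 1 GC box and 1 CCAAT box. No motif was shared by all 3 windows. Promoters were matched for 40 of the 44 members. The GC box occurred in 26 of these and in 42.3% of all 27305 promoters. The ETS core occurred in 27.5% of the 40 against 8.82% of all, the CCAAT box in 42.5% against 33.0% and the TATA box in 12.5% against 11.1%. The E box occurred in 17.5% against 6.49%, and the shortened cAMP response element in 6 of 40 against 7.42%. The NRF1 core occurred in 2 of 40 against 2.81%, and the YY1 core in 1 of 40 against 1.37%. The median GC content of the windows was 64.4% for members and 58.0% for all promoters. A match describes these letters only.

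Among the SF3A and SF3B subunits (9 genes, 10 probes), 2 fell and none rose. SF3A1, the subunit of SF3A that carries its ubiquitin-like domain, gave log2 signals of 10.15, 9.98 and 10.13 in siControl cells and 8.54, 8.49 and 8.51 in siRND3 cells at 24 h. All siRND3 arrays lay well under all siControl arrays. The log2 difference was -1.57 (SE 0.08, adjusted p = 0.000212). At 48 h its signal was 9.94 in siControl and 7.42 in siRND3 cells, which is 17.5% of control.

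SF3B4, an RNA-binding subunit that contacts the intron near the branch point, gave log2 signals of 7.73, 7.60 and 7.69 in siControl cells and 6.91, 7.31 and 7.07 in siRND3 cells. The groups did not overlap, and the siRND3 arrays were more spread than the siControl arrays. The log2 difference was -0.58 (SE 0.12, adjusted p = 0.0265), and it was -0.61 at 48 h. The other partners of SF3A1 in its complex did not pass the test, with a log2 difference of 0.18 for SF3A2 (adjusted p = 0.263) and 0.17 for SF3A3 (adjusted p = 0.185). SF3B1, the subunit that encloses the branch point helix, was at -0.03 (adjusted p = 0.863). SF3B2, the binding partner of SF3B4, had log2 signals of 13.00, 12.96 and 12.99 in siControl cells and 13.14, 13.41 and 13.34 in siRND3 cells, which did not overlap. Its difference of 0.32 did not pass the test (adjusted p = 0.0754), but it did after scaling to the 75th percentile, with normexp and with the deposited values. The remaining subunits SF3B3, SF3B5 and SF3B6 lay between -0.14 and 0.12.

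Among the SR proteins (11 genes, 20 probes), 2 fell and none rose. SRSF1, the first SR protein described and an oncogene in several tissues, gave log2 signals of 7.44, 7.46 and 7.44 in siControl cells and 6.42, 6.03 and 6.46 in siRND3 cells at 24 h. Every siRND3 array was lower than every siControl array. The log2 difference was -1.14 (SE 0.13, adjusted p = 0.00311), or 45.3% of control. Normexp correction gave a smaller difference of -0.68, which still passed the test. SRSF1 was read by 1 probe, so this value describes the transcripts that the probe detects.

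SRSF7, an SR protein with a zinc knuckle that also acts in mRNA export, was read by 2 probes that gave different results. The first (A_24_P222911) had log2 signals of 8.42, 8.27 and 8.31 in siControl cells and 7.91, 7.81 and 7.95 in siRND3 cells, a difference of -0.44 (SE 0.08, adjusted p = 0.0185). The second (A_33_P3305840) had 13.00, 12.85 and 12.93 in siControl cells and 12.80, 12.84 and 12.89 in siRND3 cells, a difference of -0.08 (adjusted p = 0.530). The groups did not overlap on the first probe, and on the second they did. With the brightest probe of a gene in place of separate probes, or with its probes averaged (difference -0.26, adjusted p = 0.0738), SRSF7 was not called.

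The other SR proteins did not pass the test. SRSF6 had a log2 difference of -0.27 (adjusted p = 0.0694) by the probe for its coding transcript and -0.06 (adjusted p = 0.674) by a probe for a non-coding transcript. Both probes of SRSF5 gave similar positive values, 0.22 and 0.24, with adjusted p of 0.111 and 0.0933. SRSF3, the smallest SR protein, was at 0.20 and 0.07, and SRSF2, which recognises exonic enhancers, at 0.12 and 0.07. SRSF4, SRSF8, SRSF9, SRSF10 and SRSF11 lay between -0.22 and 0.13 over all their probes.

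Among the hnRNPs of the A, B and D types (8 genes, 20 probes), 1 fell and 1 rose. HNRNPA0, an RNA-binding protein of AU-rich elements, gave log2 signals of 9.06, 9.07 and 9.02 in siControl cells and 8.76, 8.57 and 8.71 in siRND3 cells. The groups did not overlap, and the log2 difference was -0.37 (SE 0.08, adjusted p = 0.0304). In a fit of treatment and time to all 8 arrays it was -0.68 and did not pass the test (adjusted p = 0.0574). HNRNPDL, a relative of HNRNPD, gave 11.84, 11.71 and 11.77 in siControl cells and 12.07, 12.12 and 12.17 in siRND3 cells by its first probe (A_23_P213153), a difference of 0.34 (SE 0.07, adjusted p = 0.0321). By its second probe (A_24_P9090) the difference was -0.05 (adjusted p = 0.833). With the probes of the gene averaged, the difference was 0.15 and HNRNPDL was not called (adjusted p = 0.300).

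The abundant core hnRNPs did not pass the test. HNRNPA1, which represses splice sites and shuttles between nucleus and cytoplasm, was at -0.18 and -0.06, HNRNPA2B1 at -0.14 and -0.10, and HNRNPD, also called AUF1, at 0.02 and 0.15. The 5 probes of HNRNPA1L2 lay between -0.26 and 0.08, but this gene is a near-identical copy of HNRNPA1, so the source of its signal is uncertain. The 3 brightest member probes in siControl cells at 24 h were those of HNRNPA1 (14.87), SF3B5 (14.68) and HNRNPA1L2 (14.17), although signals of different probes are not on a common scale.

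Among the remaining hnRNPs (14 genes, 20 probes), 1 fell and none rose. HNRNPLL, a regulator of CD45 splicing in lymphocytes, gave log2 signals of 8.91, 9.04 and 8.81 in siControl cells and 8.61, 8.41 and 8.45 in siRND3 cells by one probe (A_33_P3303086). The difference was -0.43 (SE 0.10, adjusted p = 0.0376). The other probe (A_33_P3371910) gave the same difference of -0.43 but did not pass the test (adjusted p = 0.0594). HNRNPH1, which binds runs of G, was at -0.28 (adjusted p = 0.0760) and its paralogue HNRNPH2 at 0.21 (adjusted p = 0.149), and the difference between them was not tested. HNRNPC, HNRNPK, HNRNPL, HNRNPM, HNRNPR and HNRNPU lay between -0.05 and 0.11 over all their probes.

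**Figure D2:**
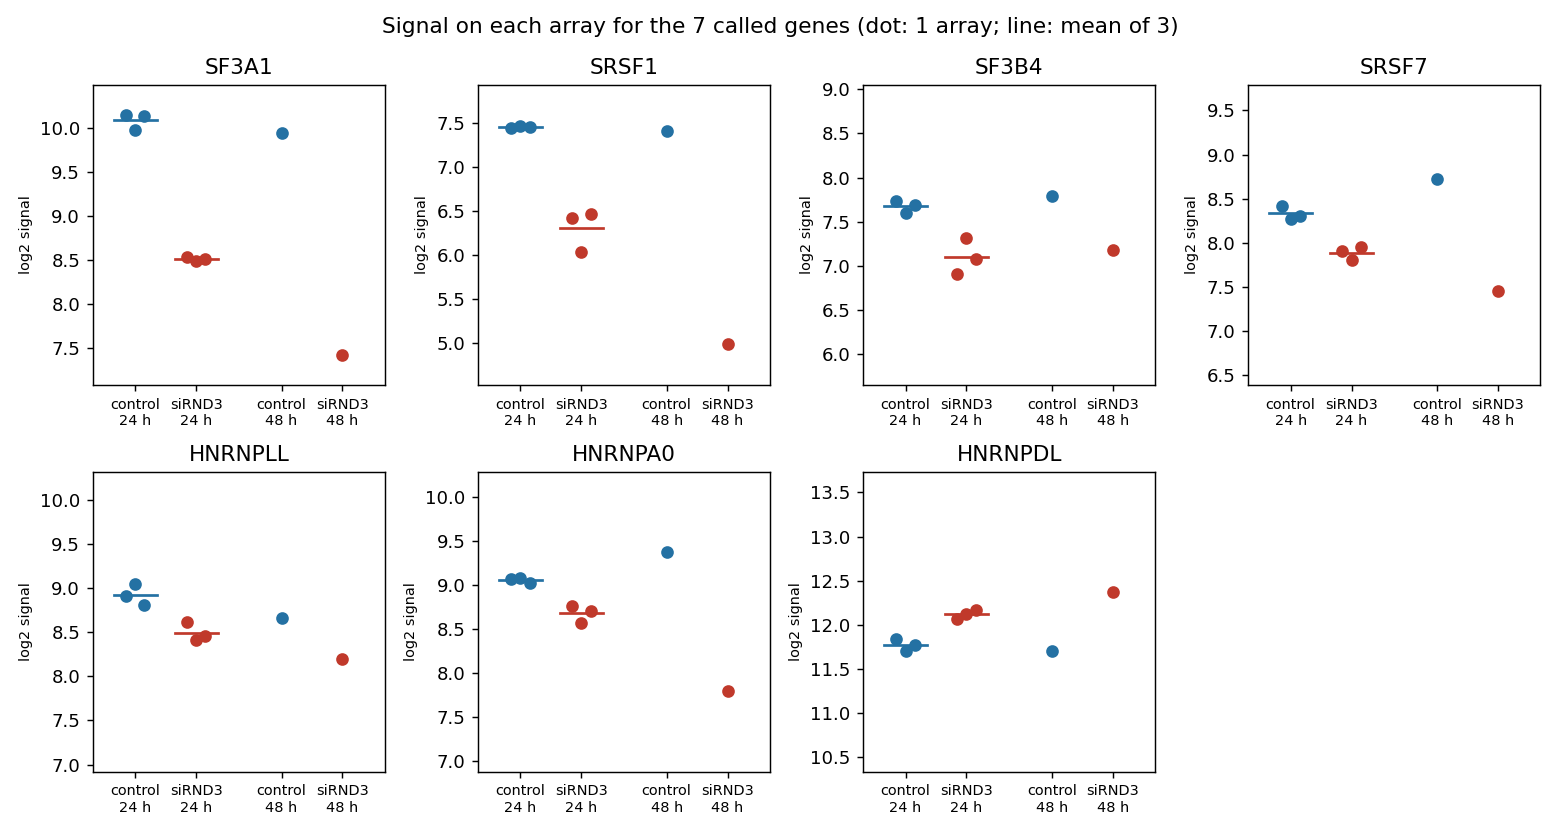
Log2 signal on each array (y axis, the same span in each panel) for the called probe of each of the 7 changed genes, in siControl (blue) and siRND3 (red) cells at 24 h and 48 h, where lines mark the mean of 3 arrays. SF3A1 lies at 10.15, 9.98 and 10.13 in siControl and near 8.5 in siRND3 cells at 24 h, and HNRNPDL is the gene with higher signal in siRND3 cells.

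SF3A1 and SRSF1 passed the test when any single array at 24 h was left out. The calls of SF3B4, SRSF7, HNRNPA0, HNRNPLL and HNRNPDL were lost when any 1 of the 3 siControl arrays was left out, which left 2 changed genes each time. Leaving out siRND3 replicate 1 lost SF3B4 and HNRNPDL and added SF3B2, leaving out replicate 2 lost HNRNPA0, HNRNPDL and HNRNPLL, and leaving out replicate 3 lost those 3 and SF3B4. These left 6, 4 and 3 changed genes, in that order. Calls over all tested probes also fell when single arrays were left out. They went from 1515 up and 1835 down to 471 to 1089 up and 908 to 1514 down. Over these fits the adjusted p ranged from 0.0407 to 0.103 for HNRNPA0, from 0.0515 to 0.119 for HNRNPDL, from 0.0416 to 0.113 for HNRNPLL, from 0.0189 to 0.0937 for SF3B4 and from 0.0367 to 0.0737 for SRSF7.

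Disagreement between probes was then examined in the 19 genes with several tested probes (47 probes). No member passed the test of 1 probe against the other probes of its gene (limma diffSplice), against a background of 6.96% of the 3551 genes tested. The lowest value was that of SRSF7 (log2 difference between probes -0.36, unadjusted p = 0.00334, adjusted p = 0.0554), which was singled out after its value was seen. It passed after scaling to the 75th percentile, with a difference of -0.40. The widest gap was that of HNRNPDL (0.39, adjusted p = 0.159), followed by SRSF7 (0.36), HNRNPA1L2 (0.34), HNRNPA3 (0.24), SRSF6, SRSF11 and SRSF10. The median gap was 0.12 in member genes and 0.14 in all 3554 genes with several tested probes. In 8 genes the probes had differences of both signs, and in 3 genes (SRSF7, HNRNPLL and HNRNPDL) 1 probe was called and another was not. The shares over all genes with several tested probes are not given here, so these counts cannot be set against a background. For HNRNPLL the probes had almost equal differences.

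**Figure D3:**
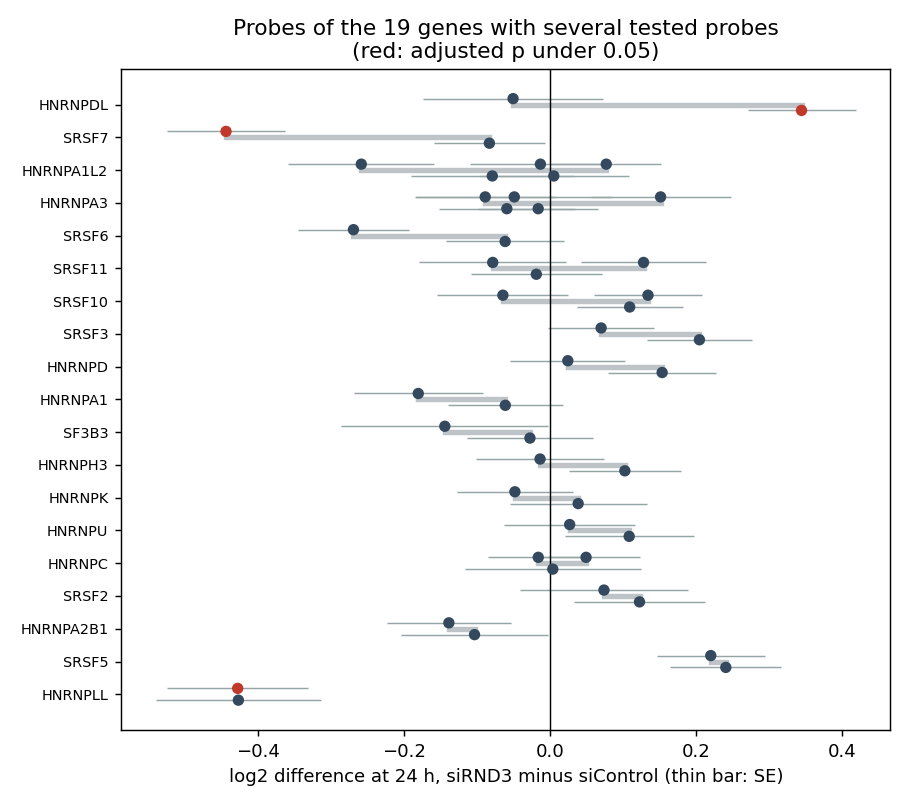
Log2 difference at 24 h (x axis) of every tested probe of the 19 genes with several probes, sorted by the gap between probes (thick grey bar), with the SE as thin bars and red points marking an adjusted p under 0.05. HNRNPDL and SRSF7 have the widest gaps, 0.39 and 0.36, and the HNRNPLL probes lie side by side at -0.43.

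At 48 h, with 1 array a group, the 7 called probes had the same sign as at 24 h. The share of all called probes that did so is not given here. The test of the difference between times assumes that the single arrays vary like those at 24 h. The knock-down effect differed between 48 h and 24 h for 2 of the 42 member genes tested, SF3A1 and HNRNPA0, against a background of 4.24% of genes. HNRNPA0 was at 9.37 in siControl and 7.79 in siRND3 cells at 48 h, a log2 difference of -1.58 that was lower than the one at 24 h by -1.21 (SE 0.16, adjusted p = 0.0263). For SF3A1 the difference at 48 h was -2.52, lower by -0.94 (SE 0.16, adjusted p = 0.0375). The SF3A1 call was lost when any single array at 24 h was left out (adjusted p from 0.0637 to 0.101), and the HNRNPA0 call when any but siRND3 replicate 2 was left out (adjusted p from 0.0398 to 0.0817).

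Several other members had larger differences at 48 h that did not pass this test. SRSF1 was at 7.41 in siControl and 4.99 in siRND3 cells at 48 h, a log2 difference of -2.41 (adjusted p for the change from 24 h = 0.0557). SRSF7 was at -1.27 by its first probe (adjusted p = 0.0531) and -0.07 by its second. SRSF9 was at -1.12 (adjusted p = 0.103), HNRNPH1 at -0.84 (adjusted p = 0.135) and SF3B2 at 1.02 (adjusted p = 0.106). From 24 h to 48 h, SF3B2 moved by -0.59 in siControl cells and by 0.11 in siRND3 cells. HNRNPH1 moved by 0.44 and -0.12, and SRSF9 by 0.31 and -0.59, in the same order. For SF3B2 and HNRNPH1 the larger difference thus came mostly from the single siControl array at 48 h. The members' median log2 difference at 48 h was 0.03, against 0.05 for all tested probes.

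**Figure D4:**
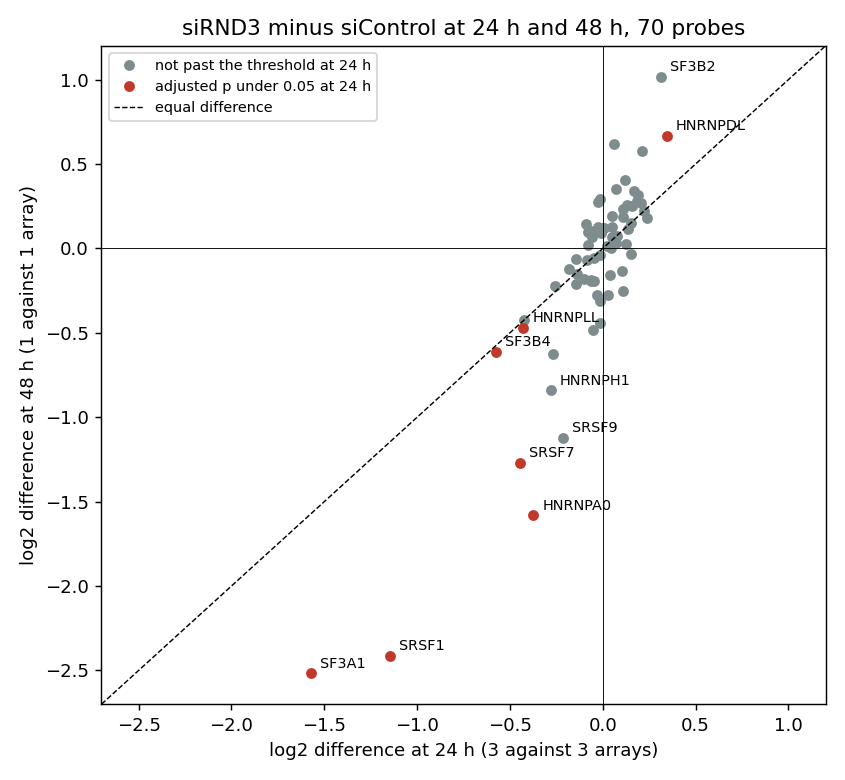
Log2 difference at 48 h (1 against 1 array, y axis) against that at 24 h (3 against 3 arrays, x axis) for the 70 tested member probes, with the dashed line marking equal differences. SF3A1, SRSF1, HNRNPA0 and SRSF7 lie below the line, with values at 48 h of -2.52, -2.41, -1.58 and -1.27.

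In siControl cells no member passed the limma test of 48 h against 24 h (0 genes), against a background of 5.17% of genes. With 1 array at 48 h this does not show that the members were unchanged. SRSF8 differed by -0.92, SF3B2 by -0.59 and a probe of HNRNPC by 0.46 on the log2 scale. In siRND3 cells 4 of the 70 member probes passed the threshold between 24 h and 48 h, against a background of 9.03% of all tested probes. SF3A1 fell by 1.09, SRSF1 fell by 1.31 and HNRNPA0 fell by 0.89 on the log2 scale, and HNRNPH2 rose by 0.48. These comparisons share the single 48 h arrays with the test above.

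Other components of the splicing machinery were read from 6 lists (157 genes tested), which were chosen with earlier results of these data known. Of these, 16 rose and 4 fell (12.7% changed, against 16.4% of all genes tested, of which 7.16% rose and 9.26% fell). The median log2 difference was 0.11, against 0.05 for all probes. Among proteins of the U1 and U2 snRNPs, 2 of 24 rose and none fell, namely PHF5A (0.49), a further subunit of SF3B, and RBM17 (0.37). In the tri-snRNP and activated spliceosome, 5 of 35 rose and none fell, with the largest values for PLRG1 (0.53), DHX8 (0.45) and SART1 (0.42). Of 30 exon junction and SR-related proteins, MAGOH (0.40) and RBM8A (0.29), which form a dimer in the exon junction complex, rose and SCAF11 (-0.37) fell. Of 12 kinases and phosphatases of SR proteins, SRPK3 (0.36) and PPP1CB (0.36) rose. Of 13 factors of nonsense-mediated decay, UPF2 (0.46) and DHX34 (0.35) rose. For several of these genes only a single probe passed. The other UPF2 probes lay between 0.16 and 0.23 (limma adjusted p from 0.117 to 0.394). The other probe was at 0.12 for RBM8A (adjusted p = 0.353) and at 0.26 for PPP1CB (adjusted p = 0.100). For DHX34 it was at 0.55 (adjusted p = 0.0703).

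Among 43 other splicing regulators, 3 rose and 3 fell. PTBP3, a paralogue of the polypyrimidine tract-binding protein, fell by both of its probes. The first gave log2 signals of 10.75, 10.90 and 10.76 in siControl cells and 8.62, 8.36 and 8.80 in siRND3 cells, a difference of -2.21 (adjusted p = 0.000323), or 21.6% of control, and the second a difference of -2.08. SFPQ, a paraspeckle protein, fell by 0.61 on the log2 scale, and PSPC1, its partner in paraspeckles, rose by 0.55, with 1 siControl array at 24 h left out by the outlier mark.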

How the data were processed

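The authors labelled RNA with Cy3, hybridised it to Agilent 8x60k arrays and extracted spots with Agilent Feature Extraction 10.7.3.1. Each deposited array file gives linear spot intensity, already corrected for background. The authors also deposited a table of quantile-normalised log2 values, which was used as an alternative. These values ranked spots as the spot median before background correction did (lowest Spearman correlation 1). The normexp alternative was also computed from spot medians and their background. Both alternatives thus start from a different signal than the main fit.

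Here the processed signals were taken to log2 and quantile-normalised together, outlier and control spots were left out, and spots of a probe were averaged. Of 42405 probes, 28759 were tested, namely those that every array of either 24 h group showed well above background. Probes were named by matching transcript accessions to the RefSeq gene table (GRCh38.p14), which named 25422. Precision is limited by the number of arrays.

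Groups were compared with limma 3.58.1 in R 4.3.3, and p-values were adjusted by Benjamini-Hochberg across every tested probe (threshold 0.05). The fits used the 6 arrays at 24 h, or all 8 with 4 groups for the tests of time. Probes of a gene were compared with diffSplice. A test of each probe against the others within each array was added after seeing the data. Significance analysis of microarrays (SAM, false discovery rate 5%) was an alternative, as were other scalings, filters, probe rules and left-out arrays.

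The members and lists were chosen with earlier results of these data known. The named genes were RND3, members called in a test, those with the widest gaps between probes, the 3 brightest probes, and up to 3 called genes of each related list. SRSF5, SRSF9, SF3B2, HNRNPH1 and other members that passed no test were named to account for every role.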

Additional observations from a re-analysis of the deposited data

Results flagged for a closer look

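The effect of knock-down differed between the time points for SF3A1 and HNRNPA0, by a test of the difference itself in limma with 4 groups. These were 2 of the 42 member genes tested, against 4.24% of all genes. The call was lost in 7 of 13 alternatives for SF3A1 and in 6 of 13 for HNRNPA0. The effect at 48 h minus the effect at 24 h, on the log2 scale, was -1.21 for HNRNPA0 (adjusted p = 0.0263) and -0.94 for SF3A1 (adjusted p = 0.0375). Each 48 h group was a single array, and the adjusted p over all alternatives ranged from 0.00513 to 0.115 for HNRNPA0 and from 0.0159 to 0.130 for SF3A1.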

How the results depend on the processing

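SF3A1 and SRSF1 kept their direction and passed the test of knock-down under all 17 alternatives. Their log2 differences ranged from -1.81 to -1.35 and from -1.46 to -0.68. The lowest values, -1.81 and -1.46, came from the fit of treatment and time to all 8 arrays. That fit takes in the 48 h arrays, so these 2 values are not differences at 24 h alone. The count of changed members (7) was 11 with normexp and 2 with the replicate number as a block, and 2 to 6 when single arrays were left out. Calls over all tested probes moved as well. They were 1515 up and 1835 down in the main fit, 2072 and 2137 with normexp, and 589 and 1062 with the block. The member count was 5 with no filter on dim probes, which ended the calls of HNRNPLL (adjusted p = 0.0690) and SF3B4 (0.0598). It was also 5 with the probes of a gene averaged, which ended those of HNRNPDL and SRSF7. Deviations of same-numbered arrays at 24 h had r of 0.00, -0.01 and 0.13. With so few arrays this cannot tell whether the numbers pair the samples. Same-numbered arrays also shared a column of the slide. The count for 48 h against 24 h (2) was 6 with normexp, 4 with a filter on all 6 arrays at 24 h, 0 with the block and 0 to 2 when single arrays were left out. The count for time in siControl cells (0) was 3 with normexp, 2 with the deposited values, 3 with array weights and 0 to 1 when single arrays were left out. The count of members with a disagreeing probe (0) was 1 after scaling to the 75th percentile, and stayed 0 within each array and when single arrays were left out (0 to 0). The cause was not tested. No spot was saturated.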
